A study of Macaca fuscata with 12 samples.

Results

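The extracellular metalloproteases and their inhibitors were followed in 2 parts of the macaque cerebral cortex after training in tool use. The members were all probe sets to which the array's gene table gives 1 symbol, where that symbol belongs to the matrix metalloproteinases (MMP), the tissue inhibitors of metalloproteinases (TIMP), the ADAM proteases, the ADAMTS proteases or the ADAMTS-like proteins (ADAMTSL). This gave 110 probe sets of 55 genes out of 52766 tested probe sets, with 37 probe sets of 22 MMP genes, 6 of 3 TIMP genes, 22 of 9 ADAM genes, 36 of 17 ADAMTS genes and 9 of 4 ADAMTSL genes. A probe set is a group of short probes that reads 1 stretch of a transcript, and the probe sets of a gene are numbered here from 1. MMP17, TIMP4, ADAM11, ADAM17 and ADAM23 were not analysed here.

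Expression was measured on 12 Affymetrix rhesus arrays with RNA from the left hemisphere of 8 Japanese macaques (Macaca fuscata). The groups were tool-use trained and control animals for tissue around the intraparietal sulcus (IPS), and trained and control animals for tissue around the lateral sulcus, with the secondary somatosensory cortex in it (SII), with 3 arrays each. Both regions came from the same animal in 4 cases, namely trained 1 and trained 3 of either region, and the pairs IPS control 1 with SII control 2 and IPS control 2 with SII control 3. The animals were between 3 years 9 months and 6 years old, and all were male except those of SII trained 2 and SII control 1.

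MMPs are secreted or membrane-bound zinc proteases that cut collagens, laminins and many other proteins around cells, and most are made as inactive precursors, as known largely from human and mouse. ADAMs sit in the membrane, where the active ones release the outer parts of other membrane proteins, while ADAMTS proteases are secreted and include the enzymes that cut aggrecan, brevican and versican in the brain matrix. TIMPs bind the active site of MMPs, and TIMP3 also inhibits ADAM and ADAMTS proteases. ADAMTSL proteins resemble ADAMTS proteases but lack the protease part. In brain, MMP9 is known as a protease of synaptic plasticity, and the proteoglycans cut by ADAMTS proteases form the perineuronal nets around neurons.

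The values are log2 units relative to each probe set's own median over the 12 arrays, so they give differences between arrays and no expression level. A rough signal class was read from the spacing of the deposited numbers: high (at least 256 on the array's linear signal scale, in at least 11 of 12 arrays), middle (at least 16), low, or floor, where at least 2 arrays carry the lowest value that an array can give. Few metalloprotease probe sets had a high signal: 3 of 110 (2.73%, against 8.49% of all tested probe sets), of which 2 belong to ADAM10, the main sheddase that acts on amyloid precursor protein and Notch, and 1 to ADAMTS10, a protease linked to fibrillin microfibrils. A further 37 members had a middle signal (33.6%, against 39.2% of all), 44 a low signal (40%, against 33.5%) and 26 lay in the floor class (23.6%, against 18.8%). For 10 genes, among them the collagenases MMP1 and MMP13 and the stromelysin MMP10, every probe set lay in the floor class. The spread between animals of a group was wide, with a median SD within groups of 0.73 log2 units for the members and 0.57 for all probe sets. Within a class the members' median SD was 0.32, 0.48, 0.83 and 1.00 for high, middle, low and floor, against 0.23, 0.37, 0.77 and 1.03 for all probe sets.

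**Figure D1:**
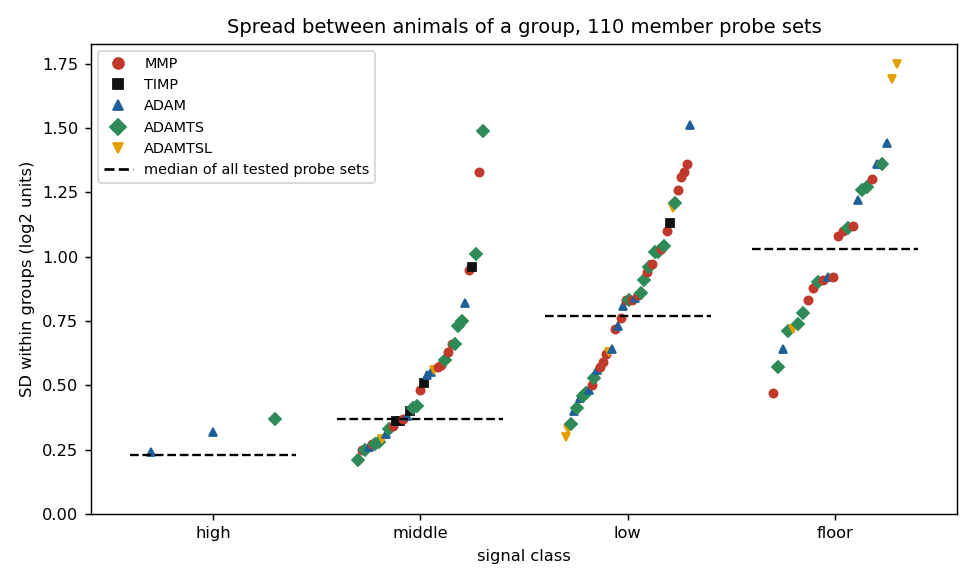
SD within groups (log2 units, vertical axis) of the 110 member probe sets by signal class (horizontal axis), each point 1 probe set with its family given by colour and shape, and dashed lines at the median of all tested probe sets of that class. The spread is smallest in the high class, where the 3 members have a median of 0.32, and is 1.00 at the median of the floor class.

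Some arrays stood apart from the others in their control probe sets. The 18 hybridisation control probe sets lay at 0.46 in IPS trained 3, 0.49 in SII trained 2 and 0.45 in SII control 1, and between -0.15 and 0.08 in the other 9 arrays. The difference between the 3' and 5' actin probe sets, a reading of RNA quality, ran from -0.79 to 1.37 in IPS trained, 0.02 to 0.23 in IPS control, -1.54 to 1.17 in SII trained and -1.87 to 0.25 in SII control arrays. For GAPDH it ran from -0.28 to 1.01, -0.03 to 0.33, -0.24 to 0.72 and -0.57 to -0.22 in the same order. Both readings are relative to each probe set's own median, so they compare arrays and give no 3' to 5' ratio. Between 6 and 14 member probe sets lay at the floor in an array. The labels give no hybridisation date or batch, so a region and a batch of its own cannot be told apart. The p-values rest on the spread between arrays within a group, which holds differences between animals and technical differences alike. Comparisons over both regions use 12 arrays of 8 animals, with a shared correlation of only 0.0474 for arrays from 1 animal. In these bulk samples fewer cells of a type and less RNA per cell cannot be told apart.

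No metalloprotease or inhibitor probe set passed the 5% false discovery rate in any comparison when limma p-values were adjusted over all 52766 probe sets, and 0 of all probe sets passed in either region. The differences below are therefore given as measured values with their standard error (SE). With unadjusted limma p under 0.05, 4 members (3.64%, against 3.27% of all probe sets) stood out between trained and control animals in IPS. Of these 1 was higher (1.81% of all probe sets were) and 3 lower (1.46%). In SII it was 4 members (3.64%, against 3.87% of all), 3 higher (2.53% of all) and 1 lower (1.35%). The groups did not overlap for 7 members in IPS (6.36%, against 7.97% of all), 2 higher (4.26% of all) and 5 lower (3.72%) in trained animals. In SII they did not overlap for 8 members (7.27%, against 6.78% of all), 5 higher (4.4% of all) and 3 lower (2.38%). These shares lie near the background, so the counts are no result about the family as a whole.

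The members as a whole had a median trained minus control difference of -0.01 log2 units in IPS, where all probe sets had 0.01, and of 0.08 in SII, where all had 0.06. By family, the median in IPS was -0.11 for MMP, 0.11 for TIMP, -0.08 for ADAM, 0.01 for ADAMTS and 0.14 for ADAMTSL probe sets. In SII it was 0.30 for MMP, -0.01 for TIMP, 0.17 for ADAM, -0.07 for ADAMTS and -0.17 for ADAMTSL. In SII 25 of 37 MMP probe sets (67.6%) lay above 0, against 56.4% of all tested probe sets, and in IPS 15 of 37 did (40.5%, against 51.7%). The ADAM probe sets were alike in this, with 15 of 22 (68.2%) above 0 in SII and 10 of 22 (45.5%) in IPS. The 95% interval of the difference lay within 1 log2 unit on both sides of 0 for 25 of 110 members in IPS and for 21 in SII, and for the other members it reached past a 2-fold difference in at least 1 direction.

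**Figure D2:**
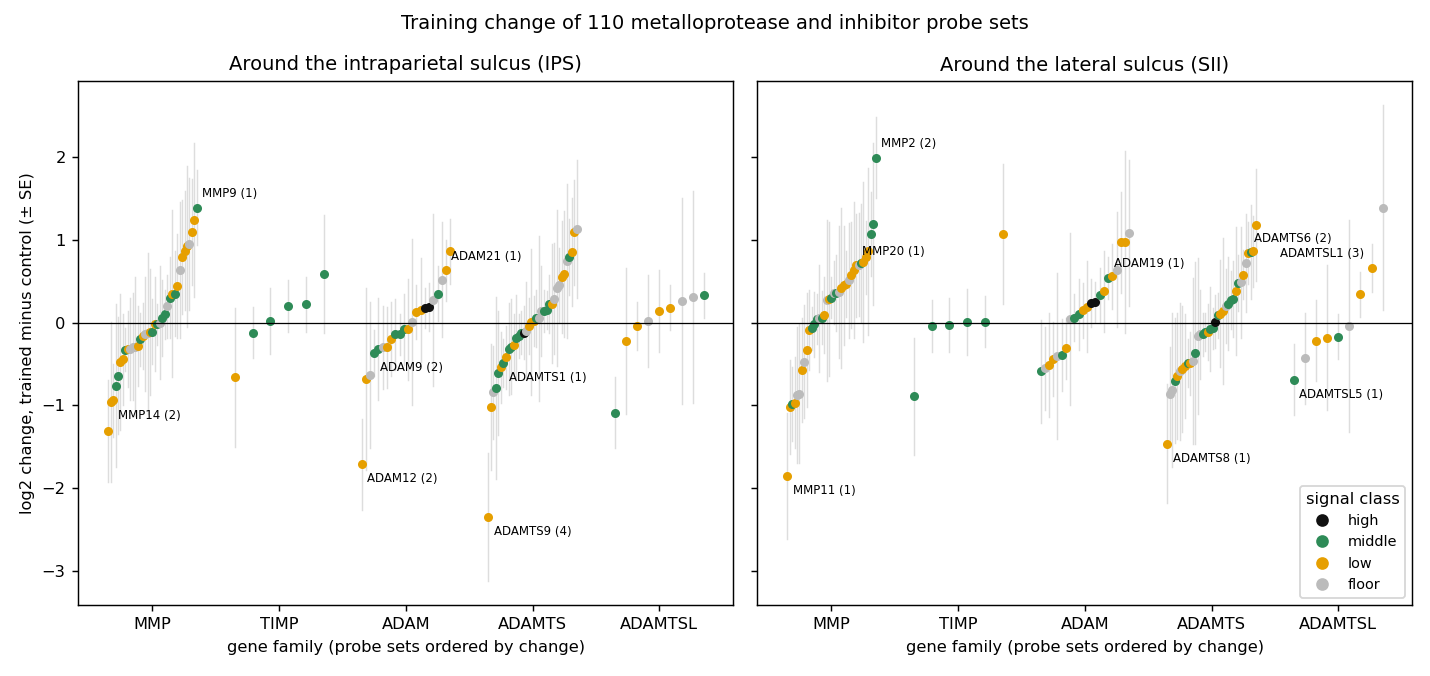
Trained minus control difference (log2 units, vertical axis, with SE) of each of the 110 probe sets in IPS (left) and SII (right), grouped by family and ordered by size, with colour giving the signal class. Named are the probe sets whose trained and control arrays do not overlap, from 1.39 for MMP9 to -2.35 for ADAMTS9 probe set 4 in IPS and from 1.99 for MMP2 probe set 2 to -1.85 for MMP11 probe set 1 in SII.

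MMP9, the gelatinase of synaptic plasticity, was read by 1 probe set (MmugDNA.17819.1.S1_at) with a middle signal. In IPS it lay at 1.75, 0.68 and 1.01 in trained animals 1, 2 and 3, against 0.14, -0.35 and -0.50 in controls 1, 2 and 3. The lowest trained array, trained 2, lay above the highest control, control 1, so the groups did not overlap. The group means were 1.15 ± 0.55 in trained and -0.24 ± 0.34 in control animals (SD, n = 3 each), a difference of 1.39 ± 0.45 (unadjusted limma p 0.0112, adjusted p 1). In SII it lay at -0.54, -0.14 and -0.74 in trained animals, against 0.34, -0.30 and 1.48 in controls. There the groups overlapped, because SII control 2 lay below SII trained 2, and the difference was -0.98 ± 0.45 (unadjusted limma p 0.0541, adjusted p 1). SII control 3 was the highest of these arrays, and without it the SII difference of MMP9 was -0.49.

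The trained minus control difference of MMP9 was thus above 0 in IPS and below 0 in SII, and the gap between them was 2.37 ± 0.63 log2 units (95% interval 0.98 to 3.77). Its unadjusted p of 0.00345 in limma was the smallest of any member in this comparison, and its adjusted p over all probe sets was 1. Animals with both regions show the same numbers from another side. IPS minus SII was 2.29 in trained animal 1 and 1.75 in trained animal 3, against 0.45 in the control of IPS array 1 and -1.83 in the control of IPS array 2. The MMP9 gap ran from 1.87 (without SII control 3) to 2.79 (without SII control 2) when each array was left out in turn, and it was 2.68 without the 3 arrays with raised hybridisation controls.

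Markers of cells that can carry MMP9 were read beside it. Of 9 measured neutrophil and granulocyte genes, 7 lay above 0 in IPS (median 0.39) and 5 in SII (median 0.02), and 0 passed 5%. Their median per array was 0.39, -0.30 and 0.46 in IPS trained animals, against 0.13, 0.20 and -0.18 in IPS controls. None of these 9 genes had a high-signal probe set, and for 2 of them every probe set lay in the floor class. Of 13 microglia and macrophage genes, 9 lay above 0 in IPS (median 0.20) and 8 in SII (median 0.03). CD74, the invariant chain of antigen presentation, lay at 0.36, 0.56 and 0.24 in IPS trained animals, against -1.61, -0.08 and -0.64 in IPS controls, a difference of 1.18 ± 0.39 (adjusted limma p over all genes 0.999). PTPRC, the CD45 surface protein of white cells, had 0.66 ± 0.30 in IPS and 0.03 ± 0.30 in SII, and CX3CR1, the fractalkine receptor of microglia, had 0.98 ± 0.57 and 1.13 ± 0.57. Others lay below 0, with ITGAM, an integrin chain of myeloid cells, at -0.35 ± 0.24 in IPS and -0.40 ± 0.24 in SII, and the microglial AIF1 and the receptor CSF1R at -0.43 ± 0.24 and -0.22 ± 0.25 in IPS. The part of these cells in the MMP9 values was not tested.

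MMP2, the other gelatinase, which is activated at the cell surface by MMP14, had 2 probe sets. Probe set 2 (MmugDNA.10473.1.S1_at, middle signal) lay at 2.34, 2.19 and 0.63 in SII trained animals, against 0.01, 0.30 and -1.13 in SII controls. The groups did not overlap, and SII trained 3 was closer to the controls than to the other trained animals. The difference of 1.99 ± 0.49 was the largest of any member in SII (unadjusted limma p 0.00223, adjusted p 0.911). The 3' minus 5' actin reading was 1.17, 0.63 and -1.54 in SII trained arrays 1, 2 and 3. In SII control arrays 1, 2 and 3 it was 0.25, -1.87 and -1.71. The GAPDH reading was 0.72, -0.02 and -0.24 in SII trained arrays, against -0.22, -0.27 and -0.57 in SII control arrays. The part of RNA quality in the MMP2 values was not tested. In IPS the same probe set lay between -0.09 and 0.03 in trained animals and between -0.72 and -0.02 in controls, with a difference of 0.30 ± 0.49. Probe set 1, with a low signal, had 0.92, -0.33 and -0.35 in SII trained animals, against -1.60, 0.33 and -0.40 in controls, which overlap (0.64 ± 0.82). As the mean of both probe sets, MMP2 differed by 1.31 ± 0.53 in SII and by -0.09 ± 0.53 in IPS.

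**Figure D3:**
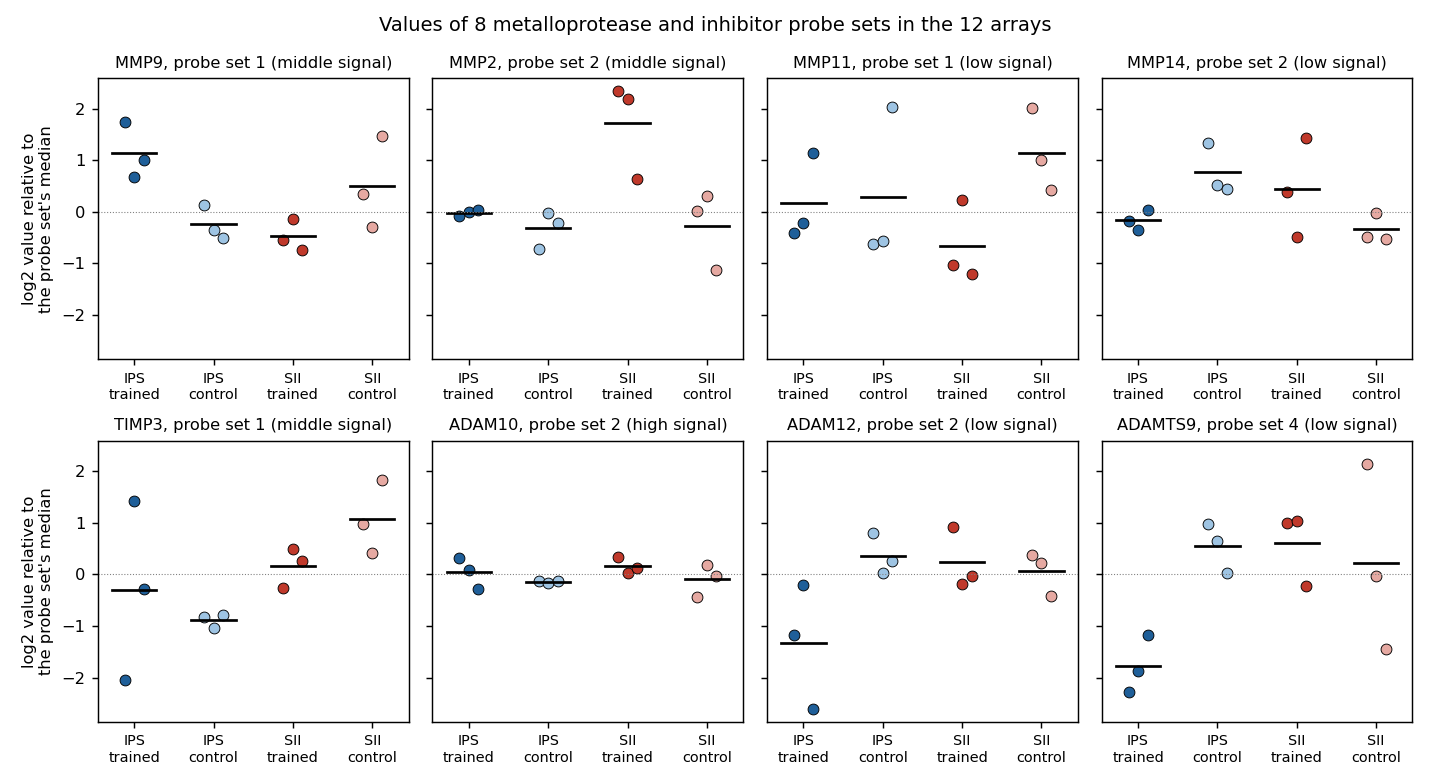
Values of 8 probe sets (log2 units relative to the probe set's own median, vertical axis) in the 3 arrays of each group (horizontal axis), with a bar at each group mean. MMP9 is high in the IPS trained arrays (mean 1.15), MMP2 probe set 2 in the SII trained arrays (mean 1.72), ADAM12 probe set 2 and ADAMTS9 probe set 4 are low in the IPS trained arrays (means -1.34 and -1.77), and the high-signal ADAM10 probe set 2 stays between -0.44 and 0.33.

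The membrane-type MMPs cut matrix at the cell surface, and MMP14 is the one that activates MMP2. Its 3 probe sets, all of low signal, did not run together. Probe set 2 lay at -0.17, -0.36 and 0.03 in IPS trained animals, against 1.33, 0.52 and 0.45 in controls, with all trained arrays below all controls (-0.94 ± 0.44). Probe sets 1 and 3 had IPS differences of 0.92 ± 0.97 and 0.87 ± 0.72, and the mean of all 3 was 0.28 ± 0.35. In SII the differences were 0.73 ± 0.97, 0.79 ± 0.44 and 0.45 ± 0.72. MMP15, with 1 low-signal probe set, differed by 0.35 ± 1.01 in IPS and 0.86 ± 1.01 in SII. For MMP16 the 3 middle-signal probe sets gave -0.64 ± 0.71, 0.06 ± 0.46 and -0.20 ± 0.32 in IPS, and 0.72 ± 0.71, 0.36 ± 0.46 and 0.06 ± 0.32 in SII. MMP24, which is abundant in nervous tissue, had the narrowest errors of these genes in probe set 1, with -0.02 ± 0.25 in IPS and 0.30 ± 0.25 in SII, and its probe set 2 had -0.11 ± 0.39 and -0.02 ± 0.39.

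Among the other MMPs, MMP11, a stromelysin whose precursor is activated inside the cell by furin, had the lowest SII difference of the members. Probe set 1 (low signal) lay at -1.04, 0.22 and -1.20 in SII trained animals, against 2.01, 1.01 and 0.43 in controls, with no overlap (-1.85 ± 0.76, unadjusted limma p 0.0351, adjusted p 1). Probe set 2 overlapped between the groups (-0.57 ± 0.63). In IPS the probe sets had -0.11 ± 0.76 and 0.44 ± 0.63. MMP20, known from tooth enamel, was read by 1 low-signal probe set. It lay at 0.00, 1.15 and 0.34 in SII trained animals, against -0.15, -0.30 and 0.00 in controls. The lowest trained and the highest control value are equal as rounded, and the difference was 0.69 ± 0.62 (0.37 without SII trained 2). In IPS the MMP20 difference was -1.31, the lowest of the MMP probe sets there, and the groups overlapped. MMP3, a stromelysin that can activate MMP9, had -0.28 ± 0.48 in IPS and -0.09 ± 0.48 in SII.

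The TIMPs were read mostly with a middle signal, and none had groups that did not overlap. TIMP1, a secreted inhibitor that also binds the MMP9 precursor, had 3 probe sets with 0.22 ± 0.33, 0.02 ± 0.40 and 0.20 ± 0.31 in IPS. In SII they had -0.03 ± 0.33, 0.01 ± 0.40 and -0.04 ± 0.31. The 95% intervals of all 6 differences stayed within 1 log2 unit of 0, with -0.89 and 0.96 as the outermost bounds. TIMP2, which takes part in the activation of MMP2 by MMP14, had -0.12 ± 0.31 in IPS and 0.01 ± 0.31 in SII in probe set 1, and -0.66 ± 0.84 and 1.07 ± 0.84 in the low-signal probe set 2. The TIMP2 probe set 2 differences moved to -0.08 in IPS without IPS trained 3 and to 0.26 in SII without SII control 1, and in SII to -0.01 without the 3 arrays with raised hybridisation controls. TIMP3, which stays bound to the matrix and also inhibits ADAM and ADAMTS proteases, lay at -2.05, 1.42 and -0.28 in IPS trained animals, against -0.82, -1.04 and -0.79 in controls. The trained arrays lay on both sides of the controls, and the difference was 0.59 ± 0.71, with -0.27 without IPS trained 2 and 1.45 without IPS trained 1. In SII TIMP3 lay at -0.26, 0.50 and 0.26 in trained animals, against 0.98, 0.42 and 1.84 in controls, with overlap (-0.89 ± 0.71, and -0.50 without SII control 3).

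ADAM10 was among the members measured with the smallest error. Probe set 2 lay at 0.32, 0.09 and -0.29 in IPS trained animals, against -0.13, -0.16 and -0.13 in controls (0.18 ± 0.24), and at 0.33, 0.02 and 0.12 in SII trained animals, against -0.44, 0.18 and -0.02 in controls (0.25 ± 0.24). Probe set 3 had 0.19 ± 0.29 and 0.24 ± 0.29. The groups overlapped in both regions, and the 95% interval of probe set 2 ran from -0.35 to 0.72 in IPS and from -0.28 to 0.78 in SII. The middle-signal probe set 1 had -0.08 ± 0.43 and -0.39 ± 0.43.

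ADAM12, a membrane or secreted protease of growing muscle and fat, had the lowest IPS difference among the ADAMs. Its probe set 2 (low signal) lay at -1.18, -0.21 and -2.61 in IPS trained animals, against 0.80, 0.02 and 0.26 in controls, with no overlap (-1.71 ± 0.55, unadjusted limma p 0.0111, adjusted p 1). IPS trained 3 was the lowest of the trained arrays, and without it the difference was -1.08. Probe sets 1 and 3 had -0.30 ± 0.49 and -0.30 ± 0.50 in IPS, and in SII the 3 probe sets had 0.38 ± 0.49, 0.19 ± 0.55 and -0.55 ± 0.50.

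ADAM19, a protease that can release neuregulin, lay at 0.62, 0.49 and 0.40 in SII trained animals, against -0.09, -0.24 and 0.21 in controls in its middle-signal probe set 1 (0.54 ± 0.25). The groups did not overlap there, while in IPS the probe set differed by -0.14 ± 0.25. ADAM21, an ADAM known mainly from testis, lay at 0.41, 0.48 and 0.38 in IPS trained animals, against -0.24, -0.36 and -0.02 in controls (0.63 ± 0.37). ADAM9, a sheddase of many tissues, lay at 0.10, -0.26 and -0.20 in IPS trained animals, against 0.46, 0.15 and 0.15 in controls in probe set 2 (-0.37 ± 0.28), again with no overlap. Its probe set 1 differed by -0.32 ± 0.62. ADAM15 had -0.14 ± 0.43 and -0.08 ± 0.61 in IPS, and 0.10 ± 0.43 and 0.97 ± 0.61 in SII.

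ADAM22 lacks protease activity and holds the secreted protein LGI1 at synapses and along axons. Its 5 probe sets, all of low signal, had IPS differences from -0.68 ± 1.10 to 0.86 ± 0.39 and SII differences from -0.51 ± 0.63 to 0.97 ± 1.10. The highest in IPS was probe set 5, at 0.50, 0.47 and -0.15 in trained animals, against -1.21, 0.06 and -0.59 in controls, and the groups overlapped. As the mean of its probe sets, ADAM22 differed by 0.05 ± 0.29 in IPS and 0.15 ± 0.29 in SII.

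Of the ADAMTS proteases that cut proteoglycans, ADAMTS9 had the widest difference in IPS. Its probe set 4 (low signal) lay at -2.28, -1.87 and -1.17 in IPS trained animals, against 0.98, 0.65 and 0.03 in controls. The groups were apart by over 1 log2 unit (-2.35 ± 0.77, unadjusted limma p 0.0122, adjusted p 1). Its other 4 probe sets had IPS differences of 0.02 ± 0.30, 0.14 ± 0.25, 0.05 ± 0.34 and 0.01 ± 0.88, and the mean of all 5 was -0.43 ± 0.26. In SII probe set 4 ran from -0.22 to 1.04 in trained and from -1.44 to 2.15 in control animals (0.38 ± 0.77). The difference of ADAMTS9 in IPS thus stood in 1 of 5 probe sets.

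ADAMTS1, induced by inflammation and able to cut aggrecan and versican, lay at -0.31, -0.06 and 0.23 in IPS trained animals, against 0.53, 0.45 and 0.35 in controls in probe set 1 (-0.49 ± 0.29, no overlap). In SII the same probe set also had -0.49 ± 0.29, with overlap. ADAMTS4, an aggrecanase found in glia, had -0.54 ± 0.43 and -0.32 ± 0.56 in IPS, and 0.86 ± 0.43 and 0.23 ± 0.56 in SII. ADAMTS5, the other main aggrecanase, had 4 probe sets, of which 2 in the floor class. Its low-signal probe sets 2 and 3 had -0.04 ± 0.34 and 0.55 ± 0.68 in IPS, and -0.11 ± 0.34 and 1.18 ± 0.68 in SII. ADAMTS8, which cuts aggrecan too, lay at -1.64, -0.08 and 0.13 in SII trained animals, against 1.29, 0.90 and 0.72 in controls in the low-signal probe set 1 (-1.46 ± 0.72, no overlap, and -0.89 without SII trained 1), but its middle-signal probe set 2 differed by -0.11 ± 0.23.

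Outside the aggrecanases, ADAMTS6 lay at -0.06, 0.21 and -0.16 in SII trained animals, against -1.78, -0.49 and -0.25 in controls in probe set 2 (0.84 ± 0.37). The groups did not overlap, with SII control 1 far below, and without that array the difference was 0.37, and without the 3 arrays with raised hybridisation controls it was 0.26. The non-proteolytic ADAMTSL1 lay at 0.50, 0.43 and 0.24 in SII trained animals, against -0.02, -0.57 and -0.23 in controls in its low-signal probe set 3 (0.66 ± 0.29), 1 of 6 probe sets. ADAMTSL5, a matrix protein that binds heparin and fibrillin, had a lower mean in trained animals than in controls in both regions in its 1 middle-signal probe set. It lay at -0.06, -0.59 and -0.61 in IPS trained animals, against -0.17, 1.61 and 0.53 in controls (-1.09 ± 0.43, with overlap), and at 0.06, -0.90 and -0.39 in SII trained animals, against 0.65, 0.07 and 0.13 in controls (-0.69 ± 0.43, no overlap). The SII difference of ADAMTSL5 was -0.45 without SII trained 2 and -0.27 without the 3 arrays with raised hybridisation controls.

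Averaged over both regions, 4 members (3.64%, against 3.48% of all) had an unadjusted limma p under 0.05, 2 higher (2.23% of all) and 2 lower (1.25%), and 0 passed 5%. ADAMTSL5 had the smallest p on the lower side, at -0.89 ± 0.31 (unadjusted p 0.0169, adjusted p 1), and ADAMTS1 probe set 1 had -0.49 ± 0.21. On the higher side were MMP2 probe set 2 at 1.14 ± 0.35 and ADAM22 probe set 5 at 0.71 ± 0.28. The average of MMP2 rested on SII (1.99) more than on IPS (0.30), while ADAMTS1 had -0.49 in each region, with -0.22 in SII without SII control 2 and -0.30 without SII trained 2. Next by p came MMP28 probe set 1, MMP19 probe set 2 and ADAMTS5 probe set 3 on the higher side (0.71 ± 0.36, 0.83 ± 0.46 and 0.86 ± 0.49), of which the first 2 had 0.45 and 0.52 without SII control 3. As means of all their probe sets, the genes of the higher side had smaller averages. These were 0.61 ± 0.38 for MMP2, 0.10 ± 0.21 for ADAM22, 0.26 ± 0.24 for MMP28, 0.28 ± 0.30 for MMP19 and 0.26 ± 0.27 for ADAMTS5. On the lower side came ADAMTS17 of the floor class, ADAM12 probe set 2 and MMP11 probe set 1 (-0.85 ± 0.40, -0.76 ± 0.40 and -0.98 ± 0.55). The ADAM12 average was -0.45 without IPS trained 3 and -0.26 without the 3 arrays with raised hybridisation controls, and that of MMP11 was -0.54 without IPS control 3.

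Whether the trained minus control difference itself differed between the regions was tested as IPS minus SII. Here 7 members (6.36%, against 3.68% of all) had an unadjusted limma p under 0.05, 1 higher (MMP9, 1.63% of all) and 6 lower (2.05% of all), and 0 members and 0 of all probe sets passed 5%. The lower ones with the smallest p were MMP14 probe set 2 (-1.74 ± 0.61), ADAMTS9 probe set 4 (-2.73 ± 1.08), ADAM12 probe set 2 (-1.90 ± 0.77), MMP2 probe set 2 (-1.69 ± 0.68) and ADAMTS4 probe set 1 (-1.40 ± 0.59), and the last was MMP20 (-1.99 ± 0.86). ADAM12 had -1.26 without IPS trained 3. After MMP9 on the higher side came ADAM21 (0.94 ± 0.51), ADAMTS7 (1.60 ± 0.88), ADAMTS8 probe set 1 (1.69 ± 1.00) and MMP11 probe set 1 (1.74 ± 1.06), all with a p over 0.05. Of these, ADAM21 had 0.58 without SII trained 2, ADAMTS7 had 0.81 without SII trained 1, and ADAMTS8 had 1.11 without SII trained 1 and 1.03 without IPS control 3. The members' median was -0.05, and that of all probe sets -0.04. Counted per gene, as the mean of its probe sets, 3 of 55 genes had an unadjusted limma p under 0.05 (3.16% of all genes did), namely MMP9 (2.37), MMP11 (1.38) and MMP20 (-1.99). The other genes named here with several probe sets had smaller values as such means than in the named probe set. These were -0.38 ± 0.49 for MMP14, -0.73 ± 0.37 for ADAMTS9, -0.77 ± 0.42 for ADAM12, -1.41 ± 0.74 for MMP2, -0.98 ± 0.47 for ADAMTS4 and 0.97 ± 0.55 for ADAMTS8.

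**Figure D4:**
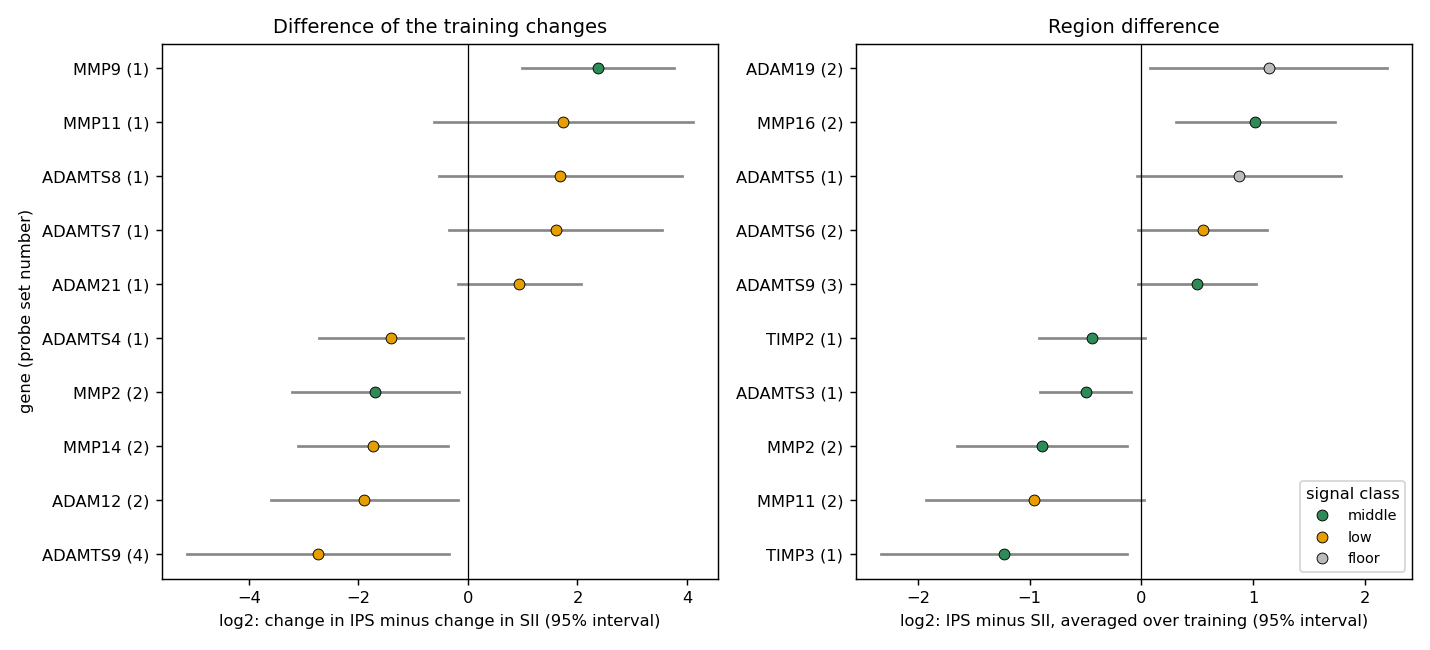
Left, the trained minus control difference in IPS minus that in SII, and right, IPS minus SII averaged over training, for the 10 member probe sets named in each comparison (log2 units with 95% interval, colour giving the signal class). MMP9 has the highest difference on the left (2.37) and ADAMTS9 probe set 4 the lowest (-2.73), and on the right the values run from 1.14 for ADAM19 probe set 2 to -1.23 for TIMP3.

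Between the regions themselves, averaged over training, 5 members (4.55%, against 9.26% of all) had an unadjusted limma p under 0.05, 2 higher (4.08% of all) and 3 lower (5.18% of all) in IPS. Of 110 members 46 lay above 0 (41.8%, against 49.2% of all). None passed 5% (smallest adjusted p 0.462), and the groups did not overlap for 0 members, against 0.963% of all probe sets. The members' median was -0.14, and that of all probe sets was -0.01. MMP16 probe set 2 lay between -0.34 and 0.91 in the 6 IPS arrays (5 of them above 0) and between -1.24 and 0.41 in the 6 SII arrays, a difference of 1.02 ± 0.32. Its probe sets 1 and 3 had 0.27 ± 0.49 and 0.09 ± 0.22. Inside an animal, MMP16 probe set 2 had -0.75 and 1.80 in trained animals 1 and 3, and 1.57 and 0.55 in the controls of IPS arrays 1 and 2. ADAM19 probe set 2, in the floor class, had 1.14 ± 0.48, whereas its middle-signal probe set 1 had -0.35 ± 0.17. ADAMTS5 probe set 1 (floor class), ADAMTS6 probe set 2 and ADAMTS9 probe set 3 had 0.87 ± 0.41, 0.55 ± 0.26 and 0.50 ± 0.24. ADAMTS5 had 0.54 without SII trained 1, ADAMTS6 and ADAMTS9 had 0.32 and 0.30 without SII control 1, and ADAMTS9 had 0.22 without the 3 arrays with raised hybridisation controls.

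On the lower side, TIMP3 had a difference of -1.23 ± 0.50 (unadjusted limma p 0.032, adjusted p 0.507). In the 4 animals with both regions its IPS minus SII value was -1.79 and -0.53 in trained animals 1 and 3, and -1.24 and -2.89 in the controls of IPS arrays 1 and 2, below 0 in all 4. IPS trained 2, from an animal with no SII array, had the highest IPS value (1.42), and without it the difference of TIMP3 was -1.64, while it was -0.79 without IPS trained 1. TIMP2 probe set 1 had -0.44 ± 0.21 and was likewise below 0 in all 4 animals (-0.59 and -0.43 in trained animals, -0.46 and -0.55 in controls), and it had -0.74 without the 3 arrays with raised hybridisation controls. The low-signal probe set 2 of TIMP2 went both ways (1.33 and -1.99 in trained animals, 1.03 and -1.10 in controls). The mean of both TIMP2 probe sets was -0.15 ± 0.33. Such agreement was not particular to these genes. TIMP1 probe set 3, ADAM10 probe sets 2 and 3 and MMP21 were among other members below 0 in all 4 animals. MMP16 probe set 1 and ADAM19 probe set 2 were among those above 0 in all 4. The arrays of these animals also entered the differences above, so the signs are no separate support for them. MMP2 probe set 2 and MMP11 probe set 2 had -0.89 ± 0.34 and -0.96 ± 0.44. As means of their probe sets, MMP2 and MMP11 had -0.30 ± 0.37 and -0.49 ± 0.27. Inside an animal, MMP2 probe set 2 had -2.44 and -0.60 in trained animals 1 and 3. In the controls of IPS arrays 1 and 2 it had -1.02 and 1.10. Its region difference thus cannot be read apart from its high values in SII trained arrays. ADAMTS3, which cuts procollagen and the precursor of the lymphatic growth factor VEGFC, had -0.50 ± 0.18, with 3 of 4 animals below 0.

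How well the probe sets of a gene ran together was counted over the 34 genes with several. Of 90 such pairs of member probe sets, 46 had the same sign of the trained minus control difference in IPS (51.1%, against 53.4% of the pairs of all genes) and 47 in SII (52.2%, against 51.3%). All probe sets of a gene had 1 sign for 16 of 34 genes in IPS and 17 in SII. MMP9, ADAM21, MMP20 and ADAMTSL5 have a single probe set, so this comparison cannot be made for them.

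Genes that act with the metalloproteases were read as means of their probe sets. Of 20 measured matrix substrates of the brain, 8 lay above 0 in IPS (median -0.04) and 8 in SII (median -0.09), where all genes had a median of 0.03 in either region, and 0 passed 5%. HAPLN3, a link protein that ties proteoglycans to hyaluronan, had 0.71 ± 0.27 in SII, and LAMA4, a laminin chain of vessel walls, had -0.54 ± 0.25 there. In IPS the smallest p belonged to the laminin chain LAMB1 (-0.44 ± 0.26) and the net protein tenascin-R, TNR (0.51 ± 0.32, with its only probe set in the floor class). Of 14 other regulators and activators, 6 lay above 0 in IPS and 9 in SII, with 0 past 5%. Among them SERPINE2, an inhibitor of thrombin and plasminogen activators, had 0.40 ± 0.19 in SII, and LCN2, which forms a complex with MMP9, had 0.51 ± 0.27 there. PLAU, the urokinase that starts plasmin formation, had 0.83 ± 0.52 in IPS, and TFPI2, an inhibitor of plasmin and other serine proteases, had 0.32 ± 0.29.

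Of 17 ADAM sheddase partners and substrates, 8 lay above 0 in IPS and 7 in SII, and 0 passed 5%. TSPAN17, a tetraspanin that guides ADAM10 in the cell, had 0.72 ± 0.30 in SII, the EGF receptor EGFR had -0.95 ± 0.40 there, and its ligand HBEGF had 0.80 ± 0.39 in IPS. The cell adhesion protein NRCAM had -0.71 ± 0.38 in IPS and -0.71 ± 0.38 in SII. Of 9 partners of ADAM22 at synapse and axon, 4 lay above 0 in IPS and 6 in SII, with 0 past 5%. The potassium channel KCNA1 had 0.92 ± 0.82 in IPS and -0.85 ± 0.82 in SII, the channel subunit KCNAB2 had -0.36 ± 0.29 in SII, and the scaffold protein DLG1 had -0.24 ± 0.26 in IPS. Of 10 other zinc metalloproteases, 6 lay above 0 in IPS and 8 in SII, with 0 past 5%. ADAMDEC1, a soluble ADAM-like protease of macrophages, had -1.42 ± 0.52 in IPS with its only probe set in the floor class, and MEP1A, a meprin chain of kidney and gut, had 1.87 ± 0.79 in SII. ECE2, an endothelin-converting enzyme, had 0.64 ± 0.30 in IPS, and PAPPA2, a pappalysin that cuts IGF-binding proteins, had 0.43 ± 0.36 in SII.

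The tissue label was set against marker genes by their signal class. A high-signal probe set was found for 4 of 5 measured astrocyte genes, 3 of 5 neuron genes and 2 of 4 oligodendrocyte genes, against 0 of 12 genes of meninges and fibroblasts, 0 of 7 of choroid plexus and ependyma, 0 of 9 of endothelial cells and pericytes, 0 of 5 of red blood cells, 1 of 13 of microglia and macrophages and 1 of 3 of muscle (CKM, the muscle creatine kinase). The numbers above 0 in IPS and SII were 2 and 2 of 5 for astrocytes, 3 and 2 of 5 for neurons, 3 and 2 of 4 for oligodendrocytes, 6 and 1 of 9 for endothelial cells and pericytes, 4 and 5 of 5 for red blood cells, and 2 and 3 of 3 for muscle. The fibroblast genes had 4 of 12 above 0 in each region (medians -0.06 in IPS and -0.36 in SII), with LUM, a collagen-binding proteoglycan, at -1.55 ± 0.50 in SII. All 7 choroid plexus and ependyma genes lay above 0 in SII (median 0.41) and 3 in IPS (median -0.03), and none of these marker genes passed 5%. In SII, where MMP2 probe set 2 lay higher in trained animals, the choroid plexus median was 0.40, 0.91 and -0.03 in trained arrays, against -0.01, -0.06 and -0.37 in controls. Its part in the MMP2 values was not tested.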

How the data were processed

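The deposited table gives 1 log2 value per probe set and array, and the authors had centred it, since each probe set has a median of 0 over the 12 arrays. The log base was inferred from the range of values. MAS5 is named without a version per the submitters' processing notes, and the scaling of the arrays was not given in the sources used here. The labels' protocols name the RNeasy Lipid Tissue Mini Kit and the 3' IVT kit. Centring leaves no level, so low signals were not filtered out. Gene names come from the platform's annotation table, which can be old.

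Of 52865 probe sets, 99 controls were left out. The floor was recognised from differences between a pair of arrays that many probe sets share (9899 probe sets, 18.8%). Its position varied over 1.67 log2 units among the arrays, and a value there is only an upper limit.

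The model in limma 3.58.1 (R 4.3.3, statmod 1.5.0) held a mean for each of the 4 groups and a shared correlation for arrays from 1 animal (0.0474), with empirical Bayes moderation (prior degrees of freedom 2.22, residual 8). P-values were 2-sided and Benjamini-Hochberg adjusted over all 52766 probe sets, at a false discovery rate of 0.05. Alternatives that kept the animal correlation used this same value, while the fits without it, with a replicate block, of 1 region alone and by the plain 2-sample test had none. Precision is limited by how many arrays there are, and the members had a median SE of 0.55 log2 units in 1 region. Companion genes were fitted as means of their probe sets over 14132 genes.

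Members, lists and rules were chosen with earlier results of these data known. Named were up to 10 member probe sets per direction whose groups do not overlap in a region (by ascending p), up to 5 per direction in the other comparisons, genes with a known place in brain or matrix turnover whatever they did, and the 2 smallest p of each companion list in each region. The settings varied were the normalization between arrays (quantile, median), array weights, sex, the animal correlation, a replicate block, the samples (each array left out, males, 1 region, the 4 animals with both regions), means per gene, the floor and a plain 2-sample test. Leaving out the 3 arrays with raised hybridisation controls was added after seeing the data.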

Additional observations from a re-analysis of the deposited data

How the results depend on the processing

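No member passed 5% under any of the 26 alternatives run (24 for the difference, the average and IPS minus SII, which a fit of 1 region alone and a plain 2-sample test cannot give). Over all probe sets, where 0 passed in each comparison, the count in SII was 1 after quantile normalization, 2 with sex as a covariate, 2 with array weights and 2 with 1 common floor, and for IPS minus SII it was 5 after quantile normalization, 2 with sex as a covariate, 2 with means per gene and 1 with 1 common floor. With each array left out in turn the counts ran from 0 to 2 in IPS, 0 to 5 in SII (5 without SII trained 3), 0 to 2 for the difference, 0 to 3 for the average and 0 to 3 for IPS minus SII.

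Members with an unadjusted p under 0.05 were 7 in IPS with sex as a covariate, 7 in male animals only and 7 without the 3 arrays with raised hybridisation controls, where 4 were found before, and 4 to 6 with each array left out. In SII, against 4, they were 2 after quantile normalization, 10 in the 4 animals with both regions, 7 without the 3 arrays and 2 to 7 with each array left out. For the difference, against 7, they were 3 with means per gene and 4 to 7 with each array left out, and for the average, against 4, they were 1 with means per gene and 2 to 7 with each array left out. For IPS minus SII, against 5, they were 12 in the 4 animals, 2 with means per gene, 3 without the 3 arrays and 5 to 11 with each array left out. Means per gene test 55 values and not 110. The members' median of the difference ran from -0.13 to 0.05 with each array left out, against -0.05, and that of IPS minus SII was -0.03 in the 4 animals, against -0.14. All IPS arrays came from males, so the IPS counts with sex as a covariate and in male animals only rest on unchanged IPS arrays. What changes there is the spread, which is estimated over all arrays used. The cause of the other shifts was not tested.

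Of the 45 differences named by non-overlap or by small p, 3 turned direction, each with means per gene. These were MMP14 in IPS (0.28) and, in IPS minus SII, ADAMTS6 (-0.03) and ADAMTS9 (-0.25), by averaging with probe sets of the other sign. A further 90 differences were named for their gene, whatever they did. Of these, 64 changed sign under at least 1 setting, 53 of them with 1 array left out. The 45 were picked from these same data by rules that favour a kept direction, so the counts for the 45 and the 90 cannot be compared. Trained and control arrays with the same replicate number came from different animals. Their deviations from the group means correlated from -0.2 to 0.06, and those of arrays from the same animal from -0.09 to 0.06. These correlations thus cannot show whether the replicate numbers pair the arrays. With a replicate block SII had 2 members with an unadjusted limma p under 0.05, against 4. Signal limits the low and floor classes most, where the spread is widest.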

Other observations

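ADAMTSL1 probe set 2 was at the floor in 8 of 12 arrays, and it was singled out after looking at its values. It stood at 4.05 in SII trained 2 and at 3.99 in SII control 1, the 2 arrays from female animals, and at most at 0.32 in the other 10 arrays. Both are among the 3 arrays with raised hybridisation controls, and the part of those controls or of sex in these values was not tested. In IPS trained 3, the third such array, the probe set lay at 0.32, which is the floor of that array and so only an upper limit.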
